A study of Arabidopsis thaliana with 6 samples.

Results

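Dehydrins are hydrophilic proteins that plant cells accumulate when water becomes scarce, in cold or drought and in maturing seeds, and COR15A and COR15B are small chloroplast proteins that protect membranes during freezing. The genes of these kinds followed here were LTI30 (AT3G50970), COR47 (AT1G20440) and the seed dehydrin gene AT2G21490, with COR15A (AT2G42540) and COR15B (AT2G42530). The 5 were chosen by locus from the 13355 genes that had a probe set of their own, and each was represented by 1 probe set. The arrays were of the Affymetrix ATH1 design, which carries sets of short probes for Arabidopsis genes, and values are on the log2 scale.

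The 3 spaceflight arrays and the 3 ground control arrays both held RNA from shoots of Arabidopsis thaliana seedlings of the Landsberg (LER-0) ecotype. All seedlings grew in the dark in canister hardware for Petri dishes, and the labels name no mutation, transgene or chemical treatment in either group. The arrays of each group are numbered 2, 3 and 4. These numbers were read from the end of the titles, where an unexplained f precedes them in both groups, and are taken as replicates. After the group word, flight titles hold the letter f and ground titles the letter h, both unexplained. Whatever this letter stands for is confounded with flight. The labels give neither the seedlings' age nor whether separate dishes stood behind the arrays of a group. P-values therefore measure only the spread between these arrays, part or all of which can be technical. In whole shoots, fewer cells of a type and less RNA per cell cannot be told apart.

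In Arabidopsis the cold response runs largely through the CBF transcription factors, which bind a short element in the promoters of genes such as COR15A and COR47, while abscisic acid acts through a separate element and its bZIP factors. LTI30 and COR47 respond to cold, drought and abscisic acid. AT2G21490 belongs to the dehydrins of seeds, whose transcripts are stored late in maturation and disappear after germination.

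Of these 5 genes, LTI30 and COR47 were lower in flight and passed the test, 0 were higher (0 also at an unadjusted p under 0.05), and AT2G21490, COR15A and COR15B did not pass. The test was limma's, over all 22746 probe sets, with adjustment by the Benjamini-Hochberg method and a threshold of 0.05 on the adjusted p. Over all probe sets 5.94% were called in either direction, 1.82% lower and 4.13% higher in flight. At an unadjusted limma p under 0.05, 1930 of the 22746 were lower and 2850 higher. The 5 genes had a median log2 change of -1.44 (flight minus ground), against -0.02 over all probe sets tested. That median is the value of COR47, and the genes were chosen with earlier results of these data known, so the contrast is no test.

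The arrays differed in seed transcripts. The mean of 3 seed reserve genes (PAP85, the oleosin gene AT3G01570 and OLEO3) was 2.46, 1.81 and 4.96 in flight replicates 2, 3 and 4, against 1.78, 8.44 and 8.53 in ground replicates 2, 3 and 4 (log2). The mean of the hybridization spike-in probe sets was 10.13 to 10.19 in flight, against 10.20 and 10.19 in ground replicates 2 and 3 and 9.61 in ground replicate 4. Array medians were 2.15 to 2.24 and lower quartiles 1.38 to 1.48, with no detection calls, so a value near these levels cannot be called expressed or absent. Of the shoot markers 1 of 6 was measured, the stem cell gene CLV3, at 1.03 to 1.57 on the 6 arrays, so the shoot label could not be checked through it. Of the root markers 2 of 8 were measured: the root hair expansin gene EXPA7 was at 0.96 to 1.34, and PYK10, which is active in hypocotyls as well as roots, was at 10.71 to 10.87 in flight, against 9.45 to 10.61 on the ground, without overlap (log2 change 0.57, limma adjusted p 0.359). The 9.45 was that of ground replicate 4, and without it the change was 0.20. Groups without overlap, higher in flight, were found in 3233 of the 22746 probe sets.

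LTI30, a basic dehydrin that binds membranes and is strongly induced by cold, had the wider gap between groups of the 2 called genes. It read 3.18, 2.51 and 1.87 in flight replicates 2, 3 and 4, against 7.50, 6.33 and 7.74 in ground replicates 2, 3 and 4 (log2). All 3 flight arrays were low and all 3 ground arrays high, with a gap of 3.14 between the highest flight and the lowest ground value. Groups that did not overlap, lower in flight, were found in 11.8% of all probe sets. The means were 2.52 ± 0.66 in flight and 7.19 ± 0.76 on the ground (SD, n = 3 each), a log2 change of -4.67 (SE 0.45, 95% confidence interval -5.72 to -3.61, limma adjusted p 0.00484). On a linear scale LTI30 was 25.4-fold lower in flight. The flight values lay near the array medians, so this fold rests on readings at that level. Ordered by log2 change from the largest fall, LTI30 held position 15 among the 13355 genes and COR47 position 199. AT2G21490, which was not called, held position 18, so a place in this order does not show a consistent fall.

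**Figure D1:**
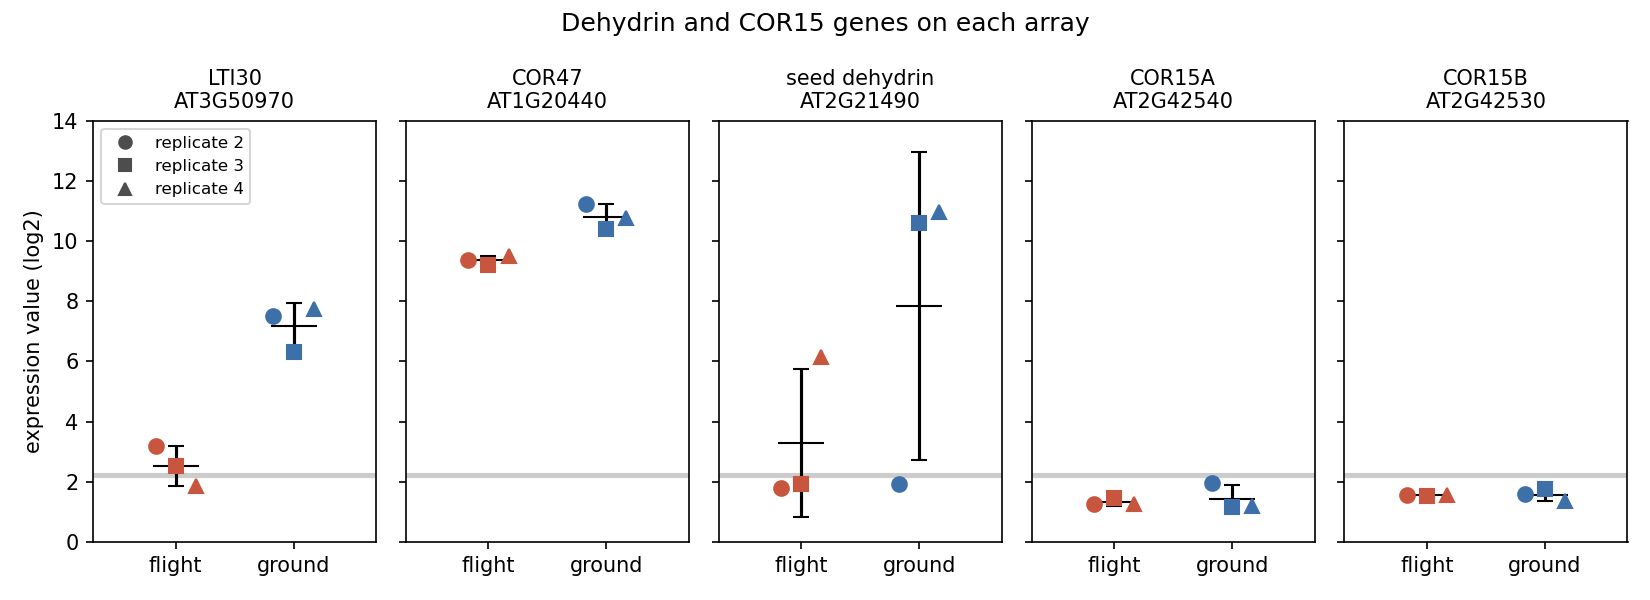
Expression values (log2, vertical axis) of the 5 genes on each array, with flight left of ground in each panel; symbols mark replicates 2, 3 and 4, and black bars give the mean ± SD of 3 arrays. The grey band spans the array medians, 2.15 to 2.24: LTI30 and COR47 are lower on all 3 flight arrays, AT2G21490 is split within both groups, and COR15A and COR15B lie below the band on all 6 arrays.

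LTI30 differed from the seed reserve genes in its array profile. It was at 7.50 in ground replicate 2, where their mean was lowest, and at 1.87 in flight replicate 4, where the seed reserve mean was the highest of the flight arrays. With the seed reserve mean as a covariate the change was -4.99 (limma adjusted p 0.0110). That mean was unevenly spread over the groups, so this fit cannot fully separate it from flight. Whether seed transcripts bear on the values of LTI30 or COR47 was not tested. LTI30 passed the test in 8 of 8 alternatives that kept all arrays and in 6 of 6 that left out 1 array, with changes of -5.10 to -4.34 in the 6. The arrays with high seed reserve values were unevenly spread over the groups, so subsets of arrays were also compared, a choice made after the data were seen. Flight replicates 2 and 3 and ground replicate 2 were near each other in the seed reserve mean (2.46, 1.81 and 1.78). Flight replicate 4 (4.96) was not matched in it to ground replicates 3 and 4 (8.44 and 8.53). Flight replicates 2 and 3 against ground replicate 2 gave a change of -4.66 (limma adjusted p 0.00883). Flight replicate 4 against ground replicates 3 and 4 gave -5.16 (adjusted p 0.241); in that comparison limma called 0 of 22746 probe sets, and 2356 had an unadjusted p under 0.05. In both, the single array is assumed to vary like those of the other group.

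COR47, an acidic dehydrin found in the cytosol and induced by cold, drought and abscisic acid, was lower in flight by a smaller amount. It read 9.38, 9.22 and 9.52 in flight replicates 2, 3 and 4, against 11.24, 10.42 and 10.77 in ground replicates 2, 3 and 4 (log2). All flight values lay below all ground values, with a gap of 0.90, and all 6 arrays were far above the array medians. The means were 9.37 ± 0.15 in flight and 10.81 ± 0.41 on the ground (SD, n = 3 each), a log2 change of -1.44 (SE 0.22, 95% confidence interval -1.97 to -0.91, limma adjusted p 0.0167), or 2.71-fold lower. COR47 passed in 8 of 8 alternatives with all arrays, the seed reserve covariate included (change -1.65, adjusted p 0.0223). Flight replicates 2 and 3 against ground replicate 2 gave -1.94 (adjusted p 0.0218), and flight replicate 4 against ground replicates 3 and 4 gave -1.08 (adjusted p 0.388). Without flight replicate 2, 3 or 4 in turn the changes were -1.44, -1.36 and -1.51 with limma adjusted p of 0.0628, 0.0805 and 0.0575, so the call was lost although the change moved little.

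The seed dehydrin gene AT2G21490 split the arrays within each group. It read 1.78, 1.94 and 6.14 in flight replicates 2, 3 and 4, against 1.94, 10.61 and 10.96 in ground replicates 2, 3 and 4 (log2). Flight replicates 2 and 3 and ground replicate 2 were low and near each other, ground replicates 3 and 4 were high, and flight replicate 4 lay between, so the groups overlapped. The means were 3.29 ± 2.47 in flight and 7.84 ± 5.11 on the ground (SD, n = 3 each), a log2 change of -4.55 (SE 2.45, 95% confidence interval -10.32 to 1.22, limma adjusted p 0.360). The point estimate was close to that of LTI30, while its standard error was 5.47 times as large. With the seed reserve mean as a covariate the change was -0.29 (adjusted p 0.748). Between flight replicates 2 and 3 and ground replicate 2 the change was -0.08, and between flight replicate 4 and ground replicates 3 and 4 it was -4.64. These subsets were chosen, after the data were seen, by the seed reserve mean, which was split over the arrays much as AT2G21490 was. Neither the subset changes nor the covariate fit is therefore a test of this gene. Without ground replicate 2 the change of AT2G21490 was -7.50 and passed the test (limma adjusted p 0.0202), and without ground replicate 4 it was -2.99.

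**Figure D2:**
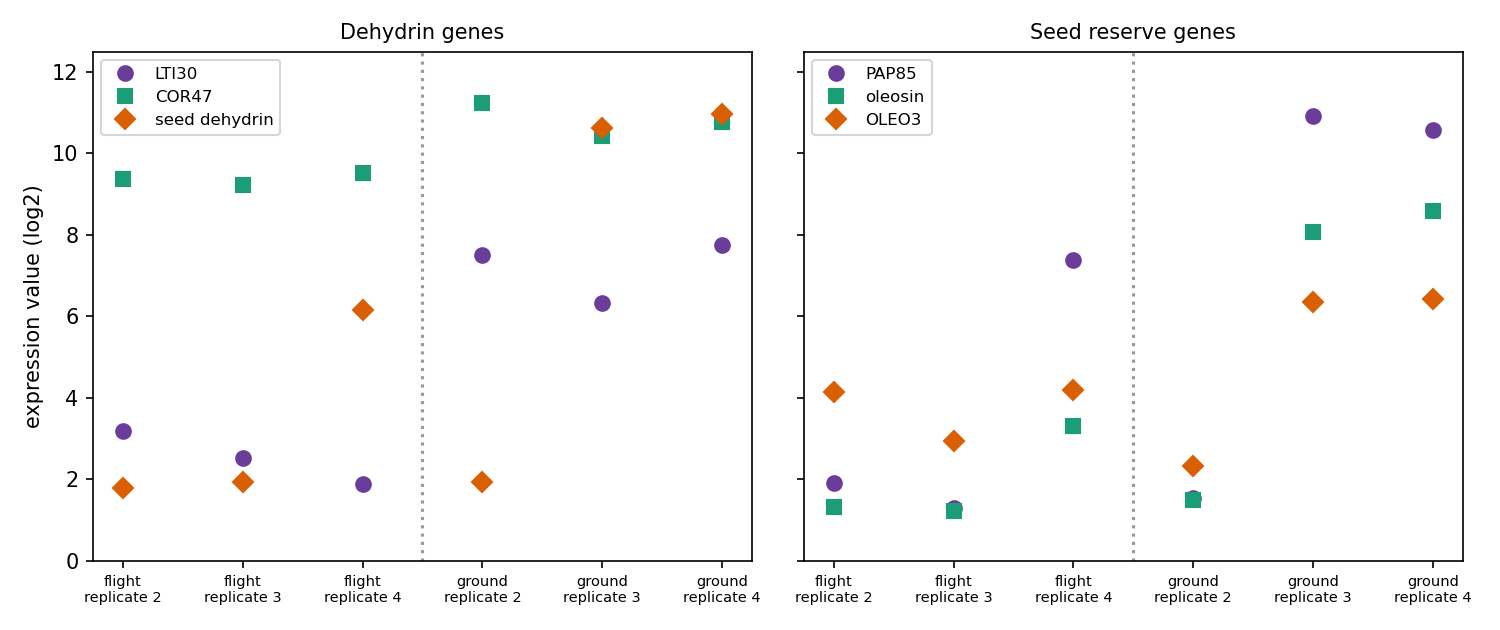
Expression values (log2) of 3 dehydrin genes (left) and 3 seed reserve genes (right) on each array, flight arrays left of the dotted line and ground arrays right of it. AT2G21490 and PAP85 are high in ground replicates 3 and 4, intermediate in flight replicate 4 and low in the other arrays, whereas LTI30 and COR47 are also high in ground replicate 2.

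Of the 3 seed reserve genes, PAP85 and the oleosin gene were split over the arrays as AT2G21490 was, and OLEO3 was not. PAP85, a vicilin-like storage protein gene, read 1.90, 1.30 and 7.38 in flight replicates 2, 3 and 4, against 1.54, 10.91 and 10.57 in ground replicates 2, 3 and 4 (log2). The oleosin gene AT3G01570, for a coat protein of oil bodies, read 1.32, 1.21 and 3.30 in flight, against 1.50, 8.06 and 8.59 on the ground in the same order. OLEO3 read 4.15, 2.93 and 4.18 in flight, against 2.31, 6.35 and 6.43 on the ground, so that flight replicates 2 and 4 were alike in this gene and above ground replicate 2. Of the 8 genes of this list 3 were measured, 0 of them were called in limma (0 also at an unadjusted p under 0.05), and their median log2 change was -4.11. Without ground replicate 2 the oleosin gene (-6.38, limma adjusted p 0.00395) and OLEO3 (-2.64, adjusted p 0.0129) were called, and PAP85 was at -7.22 (adjusted p 0.0539). The seed reserve mean was unevenly spread over the groups, so the covariate fit cannot fully separate it from flight. How far seed transcripts account for the values of AT2G21490 was not tested.

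COR15A and COR15B lay below the array median on every array. COR15A read 1.25, 1.47 and 1.27 in flight replicates 2, 3 and 4, against 1.96, 1.15 and 1.19 in ground replicates 2, 3 and 4 (log2). The groups overlapped, and the highest value was that of ground replicate 2. The log2 change was -0.11 (SE 0.24, 95% confidence interval -0.66 to 0.45, limma adjusted p 0.856), and without ground replicate 2 it was 0.16. COR15B read 1.56, 1.53 and 1.57 in flight, against 1.58, 1.77 and 1.36 on the ground in the same order. The 3 flight values of COR15B lay within the range of the ground values, with a log2 change of -0.02 (SE 0.15, 95% confidence interval -0.37 to 0.34, limma adjusted p 0.970). All 12 values lay below the lowest array median of 2.15, so these intervals describe readings below the array medians and cannot show whether the COR15 transcripts changed. The 2 genes lie next to each other on chromosome 2 and are close relatives, and whether their probe sets bind each other's transcripts could not be checked here.

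**Figure D3:**
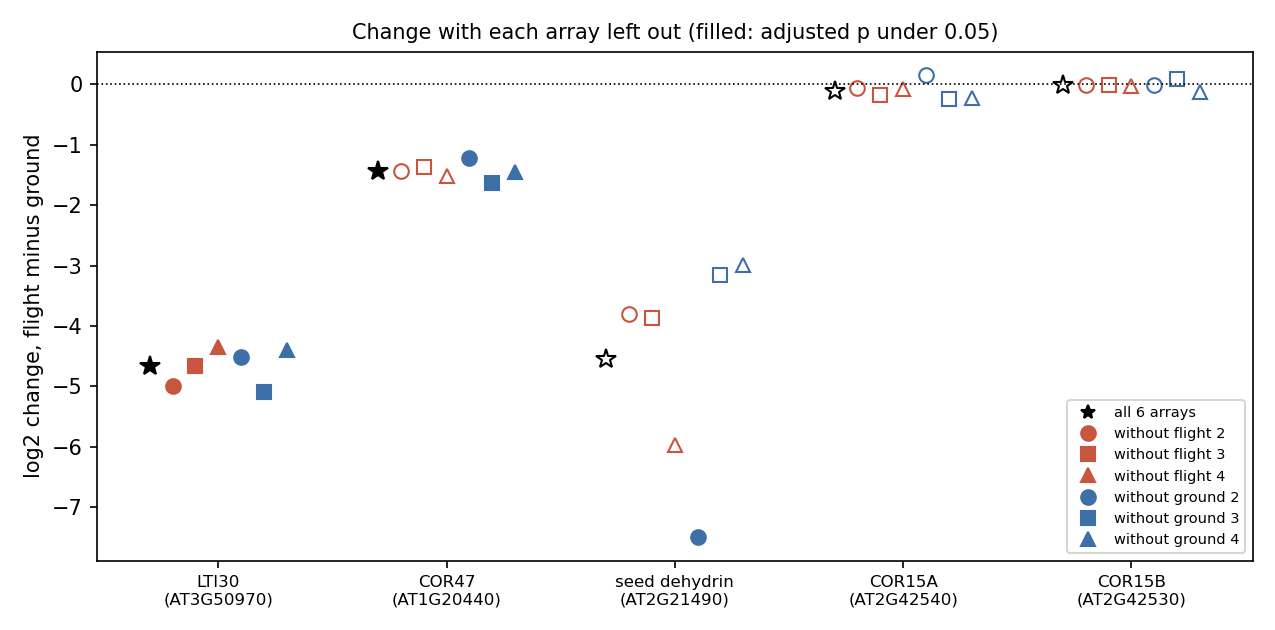
Log2 change (flight minus ground, vertical axis) of each of the 5 genes with all 6 arrays (star) and with each array left out in turn (red, a flight array; blue, a ground array), filled where the limma adjusted p is under 0.05. LTI30 is filled throughout, COR47 is open when any 1 flight array is left out, and AT2G21490 moves between -7.50 and -2.99.

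Differences between the 5 genes in their response were tested on the within-array difference of 2 genes, for all 10 pairs, with a two-sided exact permutation test over the 6 arrays. The smallest p this design allows is 0.1, so no pair can pass a threshold of 0.05. The change of LTI30 minus that of COR47 was -3.23: the within-array difference LTI30 minus COR47 was -7.64 to -6.19 on flight arrays, against -4.09 to -3.03 on ground arrays, without overlap (exact permutation p 0.1, adjusted over the 10 pairs 0.2). The differences of LTI30 and of COR47 from AT2G21490 overlapped between the groups (exact permutation p 1.0 and 0.4, adjusted 1.0 and 0.5). The 7 pairs with a COR15 gene compare no responses, since both COR15 genes lay below the array medians throughout. Their differences are left out here, and only the sign turn of COR15A minus COR15B is listed at the end.

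Of the 7 other dehydrin genes on the list 3 were measured and 0 were called in limma. At an unadjusted p under 0.05, 1 was lower, AT4G39130, as were 1930 of all 22746 probe sets. The median log2 change of the 3 was -0.15, the value of AT4G38410. AT4G39130 read 1.44, 1.57 and 1.89 in flight replicates 2, 3 and 4, against 2.38, 3.61 and 4.69 in ground replicates 2, 3 and 4 (log2). Its groups did not overlap, and ground replicate 2 was the lowest of the ground arrays. The log2 change was -1.92 (SE 0.52, limma adjusted p 0.0841). It passed with the replicate block (limma adjusted p 0.0469), with array weights (0.0443) and without ground replicate 2 (change -2.51, adjusted p 0.00872). With dim probe sets left out it also passed (0.0468), but that filter used the mean over all 6 arrays. The flight values of AT4G39130 lay below the array medians, so that call is no added support. With the seed reserve covariate the change was -1.15 (adjusted p 0.143). HIRD11 (AT1G54410), a small histidine-rich dehydrin, averaged 12.18 ± 0.03 in flight and 11.89 ± 0.31 on the ground (SD, n = 3 each), with a log2 change of 0.30 (95% confidence interval -0.13 to 0.72, adjusted p 0.430). It was the highest value of all probe sets on 4 of the 6 arrays, the 3 flight arrays and ground replicate 2, so the change rests on readings at the top of the scale. AT4G38410 averaged 1.62 ± 0.41 in flight and 1.77 ± 0.14 on the ground, with a log2 change of -0.15 (adjusted p 0.771). All its values, 1.30 to 2.08, lay below the lowest array median of 2.15, so they cannot show whether its transcript changed.

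Among the regulators of the cold and dehydration response 1 of 14 was measured, and it was called. STZ (AT1G27730), a zinc finger repressor induced by cold, salt and drought, read 4.60, 5.22 and 4.97 in flight replicates 2, 3 and 4, against 6.52, 7.05 and 6.53 in ground replicates 2, 3 and 4 (log2). The groups did not overlap. STZ fell by 1.76 on the log2 scale (SE 0.22, limma adjusted p 0.00902), and the call held in each of the 6 fits that omitted an array. Flight replicates 2 and 3 against ground replicate 2 gave -1.61 (adjusted p 0.0726), and flight replicate 4 against ground replicates 3 and 4 gave -1.81 (adjusted p 0.303). The CBF genes themselves had no probe set of their own in the annotation used here.

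Of the 29 other cold and dehydration targets 2 were measured, and 1 of them was called. COR28 (AT4G33980), a cold-regulated gene tied to the circadian clock, read 4.46, 4.04 and 4.62 in flight replicates 2, 3 and 4, against 5.36, 5.60 and 5.99 in ground replicates 2, 3 and 4 (log2). It fell by 1.27 (SE 0.22, limma adjusted p 0.0239), and it kept its call in 1 of 6 alternatives that left out an array, the one without ground replicate 2. With the seed reserve covariate the adjusted p was 0.0658, and in the comparisons of array subsets the changes were -1.11 (adjusted p 0.111) and -1.17 (adjusted p 0.374). Its relative COR27 (AT5G42900) averaged 4.88 ± 0.39 in flight and 4.83 ± 0.64 on the ground (SD, n = 3 each), with a log2 change of 0.05 (95% confidence interval -0.76 to 0.87, adjusted p 0.956), and the sign of this difference turned with median centring and with spike-in centring. KIN1 and KIN2, which are induced by cold and abscisic acid, share 1 probe set, which averaged 1.69 ± 0.41 in flight and 2.38 ± 0.66 on the ground, with a log2 change of -0.69 (adjusted p 0.339). Of the 29 genes of abscisic acid synthesis, breakdown and signalling 0 were measured with a probe set of their own.

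**Figure D4:**
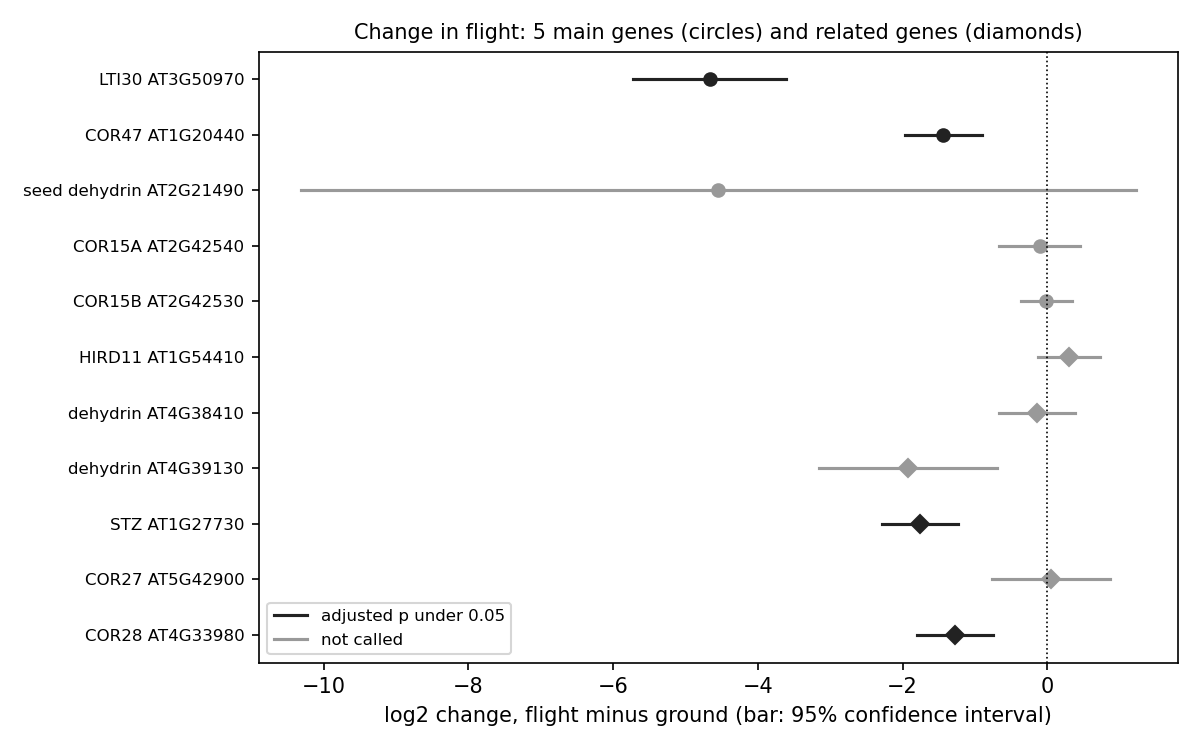
Log2 change (flight minus ground, horizontal axis) with its 95% confidence interval for the 5 genes (circles) and 6 related dehydrin and cold response genes (diamonds), dark where the limma adjusted p is under 0.05. LTI30, COR47, STZ and COR28 are dark and left of 0, and the interval of AT2G21490 runs from -10.32 to 1.22.

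The genes with the array profiles most like each dehydrin's were taken by the smallest root-mean-square difference between log2 profiles centred on their mean over the 6 arrays. For LTI30 they were AT1G24600 (0.79), the ubiquitin ligase gene PUB19 (0.79) and AT5G50360 (0.82), with log2 changes of -3.52, -3.58 and -4.33. For COR47 they were AT1G68620 (0.13), AT1G25400 (0.14) and AT1G69890 (0.15), with log2 changes of -1.36, -1.30 and -1.16. All 6 were called, which follows in part from their choice by likeness to called genes. With each array left out in turn, AT1G24600 kept its call in 6 of 6 alternatives, PUB19, AT5G50360 and AT1G68620 in 5 and AT1G25400 and AT1G69890 in 2. With the seed reserve covariate PUB19 (adjusted p 0.0510) and AT1G25400 (adjusted p 0.0572) lost theirs. For AT2G21490 they were the defensin gene LCR67 (AT1G75830, 0.32), AT3G54940 (0.39) and AT5G45690 (0.40). LCR67 read 1.27, 1.21 and 5.16 in flight replicates 2, 3 and 4, against 1.06, 10.51 and 10.69 in ground replicates 2, 3 and 4, the same split within groups as the seed dehydrin gene. The limma adjusted p of these 3 ran from 0.329 to 0.350. Without ground replicate 2 all 3 were called, with changes of -8.05 for LCR67 (adjusted p 0.0119), -7.28 for AT3G54940 (0.0110) and -7.07 for AT5G45690 (0.0251). These calls and the like split follow in part from the choice by likeness to AT2G21490, itself called without that array. COR15A and COR15B spanned 0.81 and 0.41 over the 6 arrays, less than the 1 log2 unit required, and were left out.

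The measured neighbours of LTI30 and COR47 on their chromosomes were not called. Among the 2 genes on each side of LTI30, AT3G50990 was the one measured, with a log2 change of -0.02 (limma adjusted p 0.956). Beside COR47, AT1G20410 had a change of -0.04 (adjusted p 0.912) and AT1G20430 one of 0.63 (0.335). XERO1 and ERD10, the dehydrin genes next to LTI30 and COR47, had no probe set of their own here. AT2G42560, the second gene after COR15A, had a log2 change of -4.01 that was not called (adjusted p 0.351).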

How the data were processed

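Per the labels' protocols, column-purified RNA was amplified and carried a biotin label. The table holds log2 expression values as deposited by the authors. The log base was read from the values, 0.63 to 12.30 over the probe sets tested. The submitters' processing notes name PLIER, MAS5 and RMA without saying which one made the deposited table. Of 22810 probe sets, 64 controls were left out. The platform annotation gave 1 gene for 13513, several for 503 and none for 8730. Gene names follow RefSeq (TAIR10.1), by gene identifier for 13436 probe sets, and no coordinates are given.

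The comparison of flight with ground used lmFit and eBayes of limma 3.58.1 under R 4.3.3 (two-sided, 3 arrays against 3, no covariate) on the deposited values without further normalization. P-values were adjusted over all 22746 probe sets. A gene's probe set was the one with the highest mean. SE and 95% intervals are limma's moderated ones. The genes, lists and tests were chosen with earlier results of these data known. Named were the 5 genes, from each of 7 lists every called gene and up to 4 with the largest change, and 3 genes of like profile; flanking genes were taken by position afterwards. In simulated data of 22746 probe sets the procedure recovered 45% of 100 changed by a log2 difference of 1. It recovered 83% of 100 changed by 2, with 9 false calls. Whether these figures hold for the real arrays, which differed in seed transcripts and spike-in means, was not tested. Alternatives were quantile normalization, centring on medians or on 18 hybridization spike-in probe sets, omission of dim probe sets, another variance prior, array weights, a replicate block, a seed reserve covariate, each array left out and other thresholds; both comparisons of array subsets were added after the data were seen. Sequence features of the genes were not analysed here. Array correlations were 0.895 to 0.982. Figures were drawn with matplotlib 3.10.9.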

Additional observations from a re-analysis of the deposited data

How the results depend on the processing

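LTI30 kept its direction and call in every alternative except the comparison of flight replicate 4 with ground replicates 3 and 4 (-5.16, adjusted p 0.241). COR47 kept its direction in all of them, with -1.63 to -1.22 when 1 array was left out. It lost its call without any 1 flight array (limma adjusted p 0.0575 to 0.0805) and was not called in that same comparison (-1.08). At a threshold of 0.01 COR47 (limma adjusted p 0.0167) was not called and LTI30 (0.00484) was. The replicate block (-4.67 for LTI30, adjusted p 0.00890; -1.44 for COR47, 0.0224) changed no call of the 5 genes and gave AT4G39130 one (adjusted p 0.0469), and same-numbered arrays did not all deviate together (r 0.20, -0.03 and 0.27). AT2G21490 ran from -7.50 to -2.99 with 1 array left out.

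Some changes turned sign. With 1 array left out COR15A ran from -0.25 to 0.16, COR15B from -0.12 to 0.082, AT4G38410 from -0.38 to 0.011, COR27 from -0.29 to 0.34 and EXPA7 from -0.078 to 0.11. COR15B was 0.013 and EXPA7 0.038 with quantile normalization, and COR27 was -0.0034 with median centring and -0.0997 with spike-in centring. With the seed reserve covariate PAP85 was 0.52, OLEO3 0.50 and EXPA7 0.014. PAP85 and OLEO3 are part of the mean used as that covariate, which takes up their change by construction. In flight replicates 2 and 3 against ground replicate 2, HIRD11 was -0.062, COR27 -0.22, PAP85 0.052, OLEO3 1.22, LCR67 0.19 and AT3G54940 0.0096. In flight replicate 4 against ground replicates 3 and 4, COR15A was 0.10, COR15B 0.0028 and EXPA7 0.073. The change of LTI30 minus that of AT2G21490 ran from -1.94 to 2.99, and that of COR15A minus COR15B from -0.33 to 0.17, with 1 array left out. The range for the COR15 genes compares no responses, since both read below the array medians.

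Over all probe sets, calls with 1 array left out ran from 188 (without flight replicate 3) to 1124 (without ground replicate 2) higher and from 83 to 782 lower, with the same arrays at the ends. Spike-in centring, in which ground replicate 4 stands apart (9.61), gave 470 higher and the seed reserve covariate 415 higher; flight replicates 2 and 3 against ground replicate 2 gave 346 higher, and flight replicate 4 against ground replicates 3 and 4 gave 0 higher and 0 lower in limma (1449 and 907 at an unadjusted p under 0.05). An adjusted p under 0.01 left 182 higher and 76 lower, and one under 0.1 gave 1532 and 750. Of the 12 measured list genes 2 were called lower, 1 with the seed reserve covariate or at 0.01, and 1 to 5 with 1 array left out (5 without ground replicate 2). Each of the 5 genes has 1 probe set, so no mean over probe sets was run, and the filter on dim probe sets removed COR15A and COR15B. Readings near the array medians limit the fold of LTI30 and the COR15 comparison.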
